A study of Mus musculus with 30 samples.

Results

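The genome-wide peak lists of CHD8 before and after acute loss of CTCF were compared region by region. The 4 lists, 2 libraries at 0 h and 2 at 12 h, belong to a series of 30 samples, of which 20 have a peak list, 10 are input samples that were not analysed here, and the rest of the lists cover CTCF, the cohesin subunit SMC1A and 3 other nucleosome remodelers. All cells were E14 mouse embryonic stem cells grown without serum in N2 and B27 supplements with LIF and the inhibitors PD0325901 and CHIR99021. All 4 CHD8 libraries came from cells of genotype CTCF AID and biotin-CHD8, so the 0 h controls also carried the degron on CTCF and the biotin tag on CHD8. That genotype is given here for the CHD8 libraries only. The sample titles put biotin before CHD4, SMARCA4 and SMARCA5 in their own lists, and not before CTCF or SMC1A. The lists of these other proteins may therefore come from differently tagged cells. The 0 h cells received no IAA, the auxin that triggers degradation of an AID-tagged protein, and the 12 h cells received IAA for 12 h. The labels do not say whether the line was 1 clone or whether replicates were separate cultures, so p-values measure only the spread between these libraries, which may be technical.

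Peaks on chromosomes 1 to 19 and X that touched by at least 1 bp were merged over the 4 lists, which gave 70322 CHD8 regions. A region was called lost when both 0 h lists and neither 12 h list had a peak in it, and gained in the reverse case. By this rule 2578 regions were lost and 2713 were gained, which is 3.67% and 3.86% of all regions. Of the 32289 regions in both 0 h lists 7.98% were lost, and of the 33173 regions in both 12 h lists 8.18% were gained; these shares are the background for every count below. A further 26085 regions had a peak in all 4 lists and are called kept. The remaining 38946 regions were mixed. Lost and gained describe peak calls: a list records whether a peak passed the caller's threshold, not the signal where none was called.

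CHD8 is an ATP-dependent nucleosome remodeler of the CHD family. It is known as a binding partner of CTCF, as a repressor of beta-catenin and p53 target genes, and as a gene mutated in autism. CTCF recognises a long DNA motif through its zinc fingers and halts the cohesin ring there, which anchors chromatin loops and insulates neighbouring domains. In stem cells CHD8 is also known at active promoters and enhancers.

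The CTCF motif at lost regions is shown by the letters of 6 of them, chosen because they hold it. Lost regions on a CTCF 0 h peak were taken in order of the mean percentile of the -log10 p within both 0 h lists. The 6 are the first whose window of 201 bp around the CHD8 summit holds a match to a CTCF model learnt from CTCF peaks. The letters shown also had to lie outside untranslated regions. Of all lost regions on CTCF 59.3% held a match. Capitals mark the match to the model, with 20 bases on either side, read 5′ to 3′ on the strand of the match, from the RefSeq GRCm38 genome. The 6 regions are named by the gene with the nearest start site. A CTCF peak was still called at 12 h in those of Ing4, Fam129b, Gm26841 and 4930524O08Rik. The letters lie at chr6:125030732-125030787 (minus strand), chr2:32912610-32912665 (minus strand), chr2:152693403-152693458, chr9:89827183-89827238, chr19:5463923-5463978 and chr2:91115235-91115290 (the last 4 on the plus strand).
Ing4: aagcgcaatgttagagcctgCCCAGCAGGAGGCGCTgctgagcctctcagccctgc
Fam129b: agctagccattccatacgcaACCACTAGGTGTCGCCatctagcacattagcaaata
Gm26841: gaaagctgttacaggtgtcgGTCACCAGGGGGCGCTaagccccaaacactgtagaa
4930524O08Rik: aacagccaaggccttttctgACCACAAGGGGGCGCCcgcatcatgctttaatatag
Fibp: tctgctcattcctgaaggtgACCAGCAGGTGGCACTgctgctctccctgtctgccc
Mybpc3: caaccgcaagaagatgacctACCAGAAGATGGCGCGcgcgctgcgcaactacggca

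The next letters, chosen by rank alone and not for a motif, show the summit with 30 bases on either side (plus strand) of the 3 highest-ranked lost regions more than 10 kb from any CTCF 0 h peak, near Gm8061, Laptm5 and Gm1401, and of the 3 highest-ranked gained regions, near 1700041C23Rik, Gm4675 and Gm23275. They lie at chrX:139358658-139358718, chr4:130921268-130921328, chr6:33248047-33248107, chr9:57191704-57191764, chr14:118223946-118224006 and chr9:3376562-3376622. None of these 6 held a match to the CTCF model within 201 bp of its summit. Capitals mark the only short motif found in them, a TEAD site, GGAATG, read on the other strand.
Gm8061: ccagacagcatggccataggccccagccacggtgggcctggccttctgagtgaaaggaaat
Laptm5: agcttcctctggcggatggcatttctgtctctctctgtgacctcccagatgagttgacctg
Gm1401: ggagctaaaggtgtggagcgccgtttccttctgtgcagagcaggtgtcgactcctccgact
1700041C23Rik: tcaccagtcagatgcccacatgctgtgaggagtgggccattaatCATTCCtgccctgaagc
Gm4675: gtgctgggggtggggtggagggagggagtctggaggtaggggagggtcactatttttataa
Gm23275: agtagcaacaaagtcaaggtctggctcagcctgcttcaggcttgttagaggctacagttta

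The lists themselves set how the counts can be read. Both replicate 1 lists were longer than both replicate 2 lists, with 51924 and 51822 peaks on the chromosomes used against 40870 and 42286. Median peak width was 530 to 568 bp and the median fold enrichment over background, as the authors' caller gave it, was 4.22 to 4.35 in the 4 lists. The longer lists show in the mixed regions: 9076 were only in 0 h replicate 1 and 9069 only in 12 h replicate 1, against 3204 only in 0 h replicate 2 and 3684 only in 12 h replicate 2. Another 3945 regions were in both replicate 1 lists and in neither replicate 2 list, more than were lost or gained, and 392 were in both replicate 2 lists alone. Depletion of CTCF shows in its own lists, 1 library each, with 29934 peaks at 0 h and 2248 at 12 h.

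Lost regions sat on CTCF peaks far more often than gained regions did. A CTCF 0 h peak overlapped 1080 of the 2578 lost regions, or 41.9% (exact 95% interval 40.0 to 43.8%), and 60 of the 2713 gained regions, or 2.21% (1.69 to 2.84%). The share was 16.2% among kept regions and 12.9% among all 70322 regions. The same regions moved by 100 kb to either side met a CTCF peak in 2.81%, 2.47% and 5.25% of lost, gained and kept cases. The intervals cover counting error only and treat regions as independent.

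Regions present in fewer lists leaned the same way. Of the regions only in 1 of the 0 h lists 17.6% and 20.5% were on a CTCF peak, and of those only in 1 of the 12 h lists 1.70% and 1.68% were. Regions missing from a single 12 h list were on CTCF in 20.4% (missing from replicate 1) and 18.3% (missing from replicate 2) of cases. Those missing from a single 0 h list were on CTCF in 3.61% and 4.36%. In all these classes the values of the 2 libraries of a time lay close together and the 2 times lay apart.

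Away from CTCF the balance turned. Among regions not on a CTCF 0 h peak 1498 were lost and 2653 gained. Nearly all of that difference lay outside promoters, with 1286 lost and 2429 gained. At promoters (a start site within 1 kb) away from CTCF 212 were lost and 224 gained. Up to 1 kb from a CTCF peak there were 94 lost and 178 gained regions, at 1 to 10 kb 552 and 897, at 10 to 100 kb 767 and 1355, and beyond 100 kb 85 and 223. Lost regions made up 94.7% of changed regions on a CTCF peak and 34.6%, 38.1%, 36.1% and 27.6% in the successive distance classes. Regions more than 10 kb from CTCF numbered 852 lost and 1578 gained, or 33.0% and 58.2% of each set, against 50.5% of all regions.

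**Figure D1:**
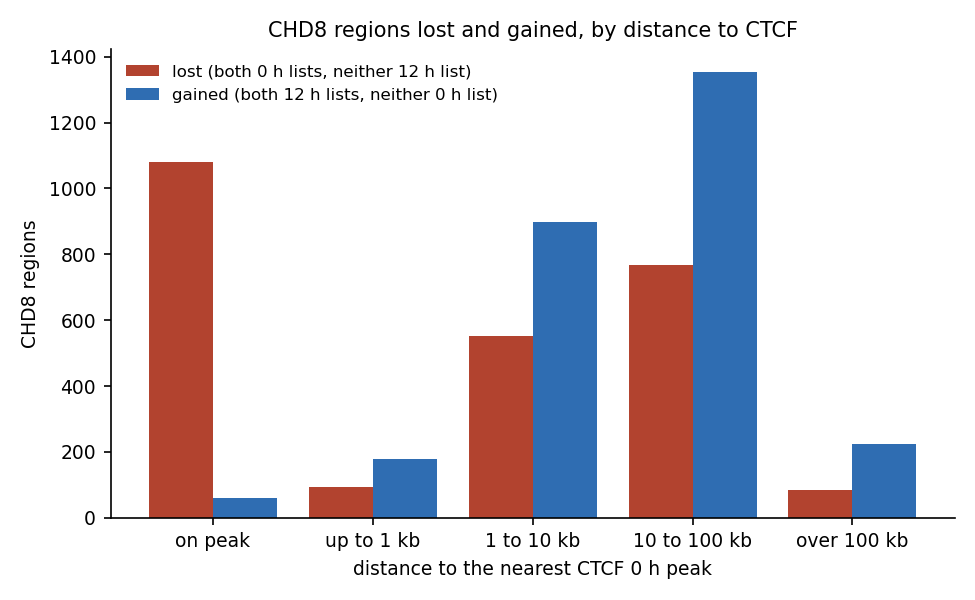
Number of lost (red) and gained (blue) CHD8 regions (vertical axis) by distance class to the nearest CTCF 0 h peak (horizontal axis). Lost regions exceed gained ones, 1080 against 60, in the class on a CTCF peak, and gained regions exceed lost ones in the 4 classes away from it.

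Distance beyond the CTCF peak itself made little difference to the rate of loss. Among regions in both 0 h lists that were not at a promoter (no annotated start site within 1 kb), 30.9% of those on a CTCF peak were lost (918 of 2970, exact 95% interval 29.2 to 32.6%). The share was 8.69% up to 1 kb, 8.63% at 1 to 10 kb, 8.85% at 10 to 100 kb and 7.60% beyond 100 kb. The intervals of these 4 classes overlapped one another, and each held the 8.68% of all regions off CTCF and outside promoters. The corresponding gained shares were 3.00% on a CTCF peak (53 of 1768) and 15.01%, 13.2%, 14.2% and 16.8% in the classes outward from it.

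Promoters kept their CHD8 peaks more often than other places, in shares that were not matched for peak strength. Of regions in both 0 h lists 5.36% of promoter regions on a CTCF peak were lost (162 of 3021), and 1.85% of promoter regions away from CTCF (212 of 11483). Exonic, intronic and intergenic regions on CTCF were lost in 30.5%, 34.5% and 28.0% of cases, and those away from CTCF in 11.6%, 8.69% and 8.11%. Lost regions were therefore 14.5% promoter, 10.3% exonic, 39.6% intronic and 35.6% intergenic, and gained regions 8.51%, 5.86%, 44.9% and 40.7%. Kept regions were 51.2% promoter.

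The regions that changed were weak and narrow. Median width was 456 bp for lost, 458 bp for gained and 1273 bp for kept regions. The median mean percentile in the lists of the time at which they were present was 29.6 for lost and 27.5 for gained regions, against 69.9 at 0 h for kept regions. Strength enters the rule, because a peak close to the caller's threshold drops out of a list more easily, so these values only describe the members.

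Within classes of equal strength the difference between CTCF sites and other sites was still present. Regions in both 0 h lists were divided into 4 classes of equal size by that percentile. In class 1, the weakest, 57.6% of regions on CTCF were lost (681 of 1182, interval 54.7 to 60.5%) and 17.9% of the others (1236 of 6891, 17.0 to 18.9%). In class 2 the shares were 24.7% and 3.82%, and in class 3 they were 3.32% and 0.109%. No region of class 4 was lost, 0 of 1759 on CTCF and 0 of 6313 away from it, which allows shares up to 0.209% and 0.0584%. Of the 11483 promoter regions away from CTCF in both 0 h lists, 5726 were in class 4. In class 1 away from CTCF, promoters lost 16.5% and other regions 18.2%, with overlapping intervals. In class 2 these shares were 1.69% and 4.49%, with intervals apart. On CTCF the class 1 shares were 41.5% at promoters and 61.0% elsewhere, also with intervals apart. Gained regions showed the reverse order in the 3 weaker classes: 6.31% on CTCF and 27.3% away from it in class 1, 1.74% and 7.36% in class 2, and 0.152% and 0.344% in class 3, where the intervals overlapped.

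**Figure D2:**
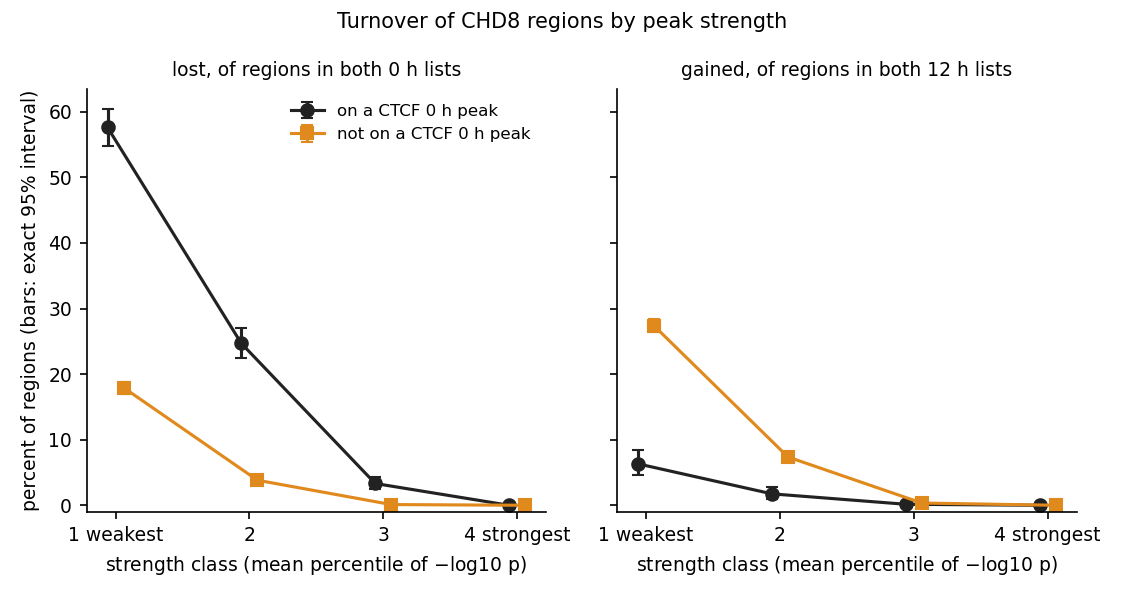
Percent of CHD8 regions lost, of those in both 0 h lists (left), and gained, of those in both 12 h lists (right), by strength class, for regions on a CTCF 0 h peak (black circles) and others (orange squares); bars are exact 95% intervals. Loss is more frequent on CTCF in classes 1 to 3, gain is more frequent away from CTCF in classes 1 and 2, and class 4 has neither.

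The rate of loss varied with the strength of the CTCF peak. Unless stated otherwise, every share in this paragraph is for regions outside promoters. Outside promoters, the share of CHD8 regions lost was 15.7%, 31.4%, 35.2% and 36.7% from the weakest to the strongest of 4 classes of CTCF 0 h peaks. Regions on CTCF with an SMC1A 0 h peak were lost in 32.7% (602 of 1843) and those without one in 28.0% (316 of 1127), with overlapping intervals. Where a CTCF peak was still called at 12 h, 25.3% were lost (147 of 580), against 32.3% where none was (771 of 2390), and these intervals did not overlap. With promoters included the shares were 15.7% (167 of 1065) and 18.5% (913 of 4926), with overlapping intervals. Away from CTCF the order for SMC1A was the opposite: 1.99% of regions with an SMC1A peak were lost (17 of 853) and 9.09% of those without (1269 of 13962), and 5.41% and 14.6% were gained. CHD8 strength was not matched in these comparisons.

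Lost regions on a CTCF peak were centred near the CTCF summit. The median distance from the CHD8 summit to the CTCF summit was 67 and 68 bp in the 2 libraries at 0 h, and 62.7% and 63.2% of summits were within 100 bp. In kept regions on CTCF the median was 218 and 233 bp at 0 h and 285 and 321 bp at 12 h, with 25.1% and 25.5% within 100 bp at 0 h and 20.9% and 19.8% at 12 h. In median distance the times did not overlap, and 12 h was the higher one. Kept regions on CTCF were broad, with a median of 1507.5 bp against 450 bp for lost ones, and 63.1% of them were promoters.

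The CTCF motif divided the regions on CTCF peaks further. A window of 201 bp around the CHD8 summit matched the CTCF model, searched on both strands, in 59.3% of lost regions on CTCF (56.3 to 62.2%), 21.2% of kept regions on CTCF and 29.4% of the kept ones that were not promoters. The share over all 70322 regions was 10.1%. Outside promoters, 44.2% of CHD8 regions on CTCF with a match at the summit were lost (565 of 1278) and 20.9% of those without (353 of 1692). At promoters on CTCF the shares were 13.0% and 3.56%. The summit used was that of the highest-percentile peak of a region in any of the 4 lists. A lost region could thus be read only at a 0 h summit, and a kept one at a 12 h summit too. The part of this choice in these shares was not tested.

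Away from CTCF peaks the model did not separate the groups in the same way. It matched 6.998% of lost, 5.56% of gained and 5.53% of kept regions that were neither on CTCF nor at promoters. Base composition differed little between lost and kept regions there, with a median GC content of 52.7% and 52.2%, and was 49.8% in gained regions. Windows mostly of soft-masked repeat made up 11.9%, 12.5% and 14.8% of lost, kept and gained regions.

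Among regions that were neither on CTCF nor at promoters, 14.1% of those in both 12 h lists were gained and 8.68% of those in both 0 h lists were lost. Short motifs were searched on both strands of the same windows, with no test. CCACACCC, a site of KLF factors, which maintain naive pluripotency, occurred in 3.95% of all regions: 17.6% of the regions with it were gained and 13.9% of those without, and 5.08% and 8.87% were lost. CTTTGAT, the site of TCF and LEF factors that carry Wnt signals, occurred in 2.74% of all regions, and 17.7% of those with it were gained against 14.0% without, while 5.56% and 8.78% were lost. Both motifs went with more gain and less loss, with intervals that did not overlap. Loss was also low with the ETS motif CCGGAAG (4.66% against 8.86% without) and the NRF1 motif GCGCATGCG (3.80% against 8.73%), again with intervals apart, but these went with less gain.

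The E-box went with less gain too. Of regions with CACGTG, an E-box bound by MYC and USF factors, found in 6.80% of all regions, 9.39% were gained against 14.5% without it, and 10.2% were lost against 8.54%, with overlapping intervals for loss. Shares gained were 4.14%, 6.17%, 6.05% and 9.92% with the NRF1 (GCGCATGCG), YY1 (AAGATGGCG), GC-box (GGGGCGGGG) and ETS (CCGGAAG) motifs, each against 14.2% or 14.3% without; the NRF1 value rests on 7 of 169 regions. These are motifs of housekeeping promoters. Shares gained with the octamer (ATTTGCAT), SOX (CATTGTT), ESRRB (TCAAGGTCA), AP-1 (TGANTCA) and TEAD (GGAATG) motifs were 16.9%, 15.8%, 16.5%, 16.6% and 14.6%, against 13.9 to 14.04% without, and the intervals overlapped except for AP-1. A pair of CATG cores 6 bases apart, the core of a p53 site, was in 85 of the regions at 0 h, of which 12 were lost (14.1%, interval 7.51 to 23.4%), and in 91 at 12 h, of which 18 were gained (19.8%, interval 12.2 to 29.4%). Both intervals held the share without the pair. A match is a description of the letters and not a bound site, and strength was not matched.

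Each list was then summarised over all its peaks, with the library as the replicate. The share of CHD8 peaks on a CTCF 0 h peak was 15.4% and 16.1% at 0 h and 9.97% and 10.1% at 12 h. The 12 h libraries were both lower, with means of 15.7 ± 0.513% and 10.02 ± 0.0652% (SD, n = 2 each). With 2 libraries against 2 an exact two-sided permutation test cannot go below p = 0.333, which is what it gave here (0.667 after Benjamini-Hochberg adjustment over 8 tests), so no comparison of libraries could reach 0.05. The share of peaks more than 1 kb from both CTCF and a start site was 54.0% and 49.1% at 0 h and 58.5% and 54.8% at 12 h, a difference of 5.11 percentage points (exact permutation p = 0.333, adjusted 0.667).

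Promoter occupancy overlapped between the times. A CHD8 peak lay within 1 kb of a start site of 64.1% and 60.9% of protein-coding genes at 0 h and of 63.2% and 59.5% at 12 h (exact permutation p = 0.667, adjusted 0.762). The share of peaks at promoters was 33.3% and 38.7% at 0 h and 32.7% and 37.0% at 12 h (exact permutation p = 0.667, adjusted 0.762). In both measures replicates 1 and 2 of a time lay further apart than the times did. Among kept regions ranked in each library by -log10 p, those on CTCF had a median percentile of 62.6 and 62.1 at 0 h and 59.4 and 57.1 at 12 h, with no overlap between the times (exact permutation p = 0.333, adjusted 0.667).

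**Figure D3:**
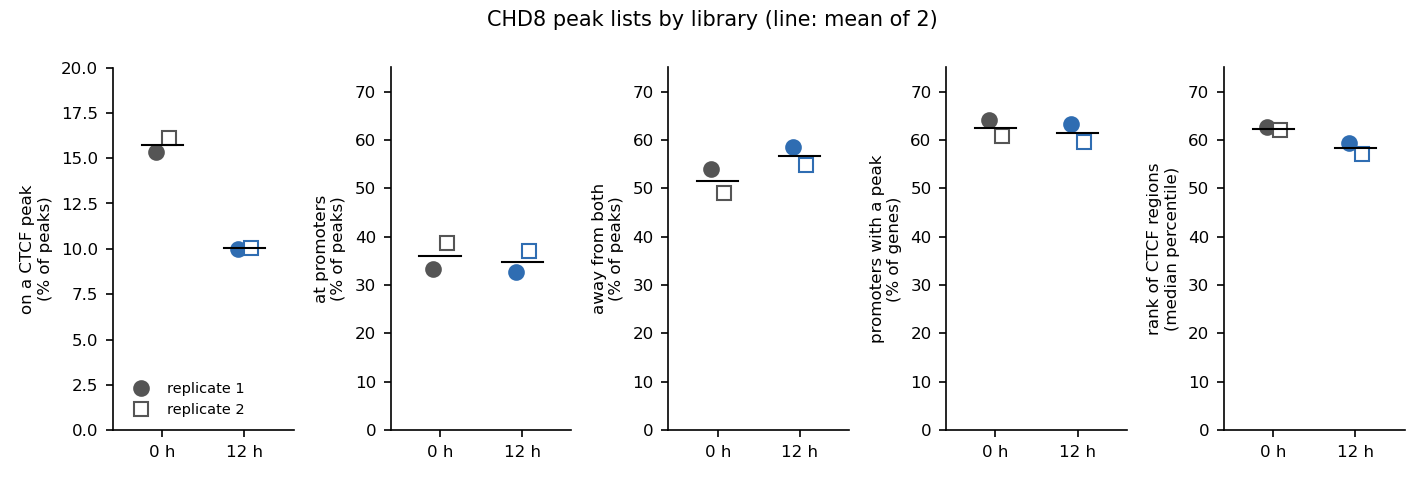
Each of the 4 CHD8 libraries (circles, replicate 1; open squares, replicate 2; grey, 0 h; blue, 12 h) with the mean of 2 as a line, for 5 measures in percent of peaks, percent of genes or percentile. The times do not overlap for the share on CTCF, the rank of CTCF regions and the share away from both, and overlap for both promoter measures.

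By gene, 12533 of 21728 protein-coding genes (57.7%) had a promoter peak in all 4 lists. Promoters of 166 genes had a peak in both 0 h lists and neither 12 h list, and 84 of these (50.6%) also had a CTCF 0 h peak; for the 12533 genes with a peak in all lists that share was 21.2%. Promoters of 52 genes had a peak only in both 12 h lists, and 2 of them (3.85%) had a CTCF peak. Lost and gained regions were spread over many genes, with 2174 nearest protein-coding genes for lost and 2198 for gained regions. Of these, 445 were nearest to both kinds, or 20.5% and 20.2% of the respective sets; of all protein-coding genes 10.01% were nearest to a lost and 10.1% to a gained region.

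The strongest lost region on CTCF lay at chr6:125030569-125031014, in an intron of Zfp384, 8746 bp from the start site of Ing4, which encodes a reader of methylated histone H3. Its fold enrichment was 10.3 and 8.16 in the 0 h libraries, and neither 12 h list had a peak there. The region second in rank covered the start site of Disp3 at chr4:148287957-148288356, with 12.6 and 7.72. The other 8 included an exon of Fam129b, the promoter of Pinlyp (7.99 and 7.91) and introns of Fibp and Taldo1, and their enrichments were 5.25 to 8.71 at 0 h. Of the 10 strongest lost regions on CTCF, named after Ing4, Disp3, Fam129b, Pinlyp, Gm26841, 4930524O08Rik, Fibp, Mybpc3, Lsm11 and Taldo1, all but the one at Pinlyp had an SMC1A 0 h peak. A CTCF peak was still called at 12 h in those named after Ing4, Fam129b, Gm26841, 4930524O08Rik and Taldo1. Of all lost regions on CTCF 15.5% had a CTCF 12 h peak.

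A pair of these regions lies near Mcts2 and Rasgrf1, which are imprinted genes, expressed from the copy of one parent. The region at chr2:152693165-152693903 is in an intron of H13, 2789 bp from the lincRNA Gm26841 and 6130 bp from the imprinted retrogene Mcts2; its enrichment was 7.88 and 6.25 at 0 h. The region at chr9:89826779-89827538 covers the start of the lincRNA 4930524O08Rik, 82370 bp from Rasgrf1, with 7.40 and 6.88. The Mybpc3 region, at chr2:91114987-91115629, is an exon of Spi1, the gene of the blood factor PU.1, and had 7.80 and 5.56.

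Far from CTCF, the 10 highest-ranked lost regions had enrichments of 4.29 to 8.98 at 0 h. The region at chrX:139358183-139359167 covers the processed pseudogene Gm8061 (8.98 and 7.99 at 0 h), and the one at chr6:33247226-33248222 covers the processed pseudogene Gm1401 (5.08 and 5.53). Reads of a processed pseudogene may belong to its parent copy, so these 2 are uncertain. The region at chr4:130920981-130921652 is an intron of Laptm5, a lysosomal membrane protein gene, with 7.62 and 4.29, and lies 24183 bp from CTCF. The other members of the top 10, named after Aig1, n-R5s210, Gm8197, Gm15512, Arhgef11, Gm833 and 5033430I15Rik, had enrichments of 4.48 to 7.42 at 0 h, and all 7 were intronic or intergenic.

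No gained region of the top 10 was on a CTCF peak or at a promoter. The first, at chr9:57191525-57191969, is intergenic, 16250 bp from the lincRNA 1700041C23Rik and 17237 bp from CTCF; it had no peak at 0 h and an enrichment of 11.0 and 7.82 at 12 h. The second, at chr14:118223591-118224098, lies 12932 bp from Sox21, a repressor of the SOX family, and had 7.49 and 6.996. The third is an intron of Alkbh8 at chr9:3376344-3376756, with 7.23 and 7.45. The remaining 7, named after Gm48361, Gm21123, Gm27204, 2700078F05Rik, Gm10241, Vmn2r81 and Gpd2, had 4.93 to 7.87 at 12 h, and 3 of the 10 were intronic, in Alkbh8, Enah and Yeats2.

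Promoters were also ranked among the 166 and 52 protein-coding genes above, whose promoters had no peak at the other time, and the ones named here were picked after their values were seen. Disp3 came first among the lost ones. Others on CTCF included Lrfn2 (7.15 and 5.34), a synaptic adhesion gene, Sh3bp5 (4.54 and 4.54), and Ltb (4.34 and 4.08), a tumour necrosis factor family ligand. The promoter of Slc6a3, the dopamine transporter gene, was lost 22547 bp from CTCF, with 4.93 and 4.36. The highest-ranked gained promoters among the 52 genes were Zfp988 (5.05 and 4.22 at 12 h), Alox5ap (4.63 and 4.11), 1700028P14Rik (3.96 and 4.96) and Cfap65 (4.81 and 6.03). Among the 15 highest-ranked of the 52, only Ggt7 (3.79 and 3.90) was on a CTCF peak.

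Gene lists were read through the regions nearest to their members. Pluripotency factors, which hold the cells undifferentiated, had 18 of 20 promoters with a CHD8 peak in all 4 lists. Of the 204 regions in both 12 h lists nearest to them 27 were gained, or 13.2% (exact interval 8.91 to 18.7%), near 11 of the 20 genes, against 8.18% of all such regions. Of 161 regions in both 0 h lists 7 were lost, or 4.35% (1.77 to 8.75%), near 6 genes. That interval held the 7.98% of all such regions. Outside promoters and CTCF peaks the gained share was 15.4%, against 14.1% for all regions of that kind. With only peaks at a -log10 q of at least 5 the gained share was 8.33% (10 of 120), against 6.66% of all regions at that threshold.

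The gained regions nearest to pluripotency factors were concentrated in a few genes, some of them at long distances. Tbx3, a T-box factor of naive stem cells, had 6 gained and 1 lost region, the lost one on a CTCF peak. Its gained regions lay 23947 to 297331 bp from its start site. Zfp42, the stem cell marker also called REX1, had 5, of which 3 stood together 22787, 23523 and 24650 bp from its start site with enrichments of 5.60 and 2.92, 4.47 and 3.95, and 3.06 and 2.77 at 12 h. Prdm14, a repressor of differentiation genes, had 3, and the one at chr1:13127952-13128808 was 789 bp from its start site (2.92 and 5.07). The others lay 57353 and 66920 bp from it, each within 1 kb of another annotated start site. Sox2, Klf2, Klf5, Esrrb and Tfcp2l1 had 2 each, and Klf4, Dppa5a and Sall4 had 1 each. Those of Klf5 lay 211438 and 217625 bp from its start site.

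The gained regions of Sox2 lay 2087 bp and 61855 bp from its start site, at chr3:34652492-34653057 (3.67 and 2.97) and chr3:34712260-34712597 (4.87 and 4.10). Those of Esrrb, the orphan nuclear receptor of naive cells, lay 40029 bp from its nearest start site (3.47 and 3.72) and in an intron 6521 bp away (4.40 and 3.25). All these enrichments were modest, and none of the 27 regions was on a CTCF 0 h peak. The lost regions near Dppa3, at chr6:122633424-122633758 (3.60 and 3.82) and chr6:122660577-122661538 (4.38 and 3.51), were both on CTCF. The other lost regions of the list were at Klf2, Klf5, Utf1 and Fgf4, all away from CTCF.

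p53 target genes halt the cell cycle or start apoptosis after DNA damage. Of the 54 regions in both 0 h lists nearest to the 15 genes, 12 were lost, or 22.2% (12.0 to 35.6%), near 6 genes, against 7.98% of all regions. Of the 40 in both 12 h lists 1 was gained, or 2.50% (0.0633 to 13.2%), an interval that held the 8.18% of all regions. Outside promoters and CTCF peaks 7 of 29 were lost, or 24.1% (10.3 to 43.5%), against 8.68% of all such regions. The lost regions were weak: with only peaks at a -log10 q of at least 5 the share was 8.57% (3 of 35), against 6.25% of all regions. Leaving out CHD8 0 h replicate 1 or 2 gave 29.0% or 29.6%, against 16.1% or 23.7% of all regions. Leaving out 12 h replicate 1 or 2 gave 25.5% or 27.8%, against 17.5% or 9.93%.

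The p53 targets with lost regions were Cdkn1a, Bbc3, Ccng1, Trp53inp1, Phlda3 and Pmaip1, and 14 of the 15 genes had a promoter peak in all 4 lists. Cdkn1a, the cyclin-dependent kinase inhibitor p21, lost a peak at chr17:29089684-29090097, 882 bp from its nearest start site (3.60 and 2.82 at 0 h), and another 23580 bp away (2.72 and 2.40). Bbc3, the apoptosis activator PUMA, lost peaks 1440 bp (4.38 and 3.13) and 7591 bp (3.21 and 2.62) from its start. Phlda3, an inhibitor of AKT signalling, lost 4, of which the 2 on CTCF were stronger (7.02 and 3.39, and 5.14 and 5.76) than the 2 away from it (3.41 and 3.12, and 3.29 and 3.55). It also gained 1, in an intron 14432 bp away.

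Pmaip1, the apoptosis factor NOXA, lost 2 regions on CTCF, 53761 and 61341 bp from its start site, with enrichments of 2.54 to 4.04. Ccng1, cyclin G, lost an intronic region 1928 bp from its start (3.29 and 3.18), and Trp53inp1, a stress-induced p53 cofactor, an intergenic one 3944 bp away (3.72 and 3.48). In all, 4 of the 12 were on CTCF. Only Phlda3 and Pmaip1 had lost regions on CTCF.

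Wnt targets, the genes switched on by beta-catenin, had 6 of 45 regions lost (13.3%, 5.05 to 26.8%) and 3 of 49 gained (6.12%, 1.28 to 16.9%), both intervals holding the share of all regions. The promoters of Nkd2 and Rnf43, feedback inhibitors of the pathway, were lost on CTCF peaks. Nkd2 had an enrichment of 4.55 and 6.27 at 0 h at chr13:73846792-73847852, and Rnf43 3.06 and 2.50 at chr11:87662502-87662830. Other lost regions were nearest to Lef1, Tcf7, Myc and T, none on CTCF, with the one nearest to Myc 782948 bp away. The gained ones were nearest to Axin2 and Nkd1, which are feedback inhibitors too.

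In the remaining lists the intervals of the lost and gained shares all held the shares of all regions, 7.98% and 8.18%. Many of these intervals were wide, such as 0 to 10.3% for the gained share of E2F and cell-cycle genes. They show neither a difference from the background nor closeness to it. E2F and cell-cycle genes, CTCF and cohesin genes and ribosomal protein genes had a promoter peak in all 4 lists at 18 of 18, 19 of 19 and 76 of 76 genes, against 57.7% of all protein-coding genes. Of their regions 2.86%, 5.56% and 6.15% were lost and 0%, 2.70% and 8.46% gained. Lineage regulators, which drive differentiation, had 12 of 20 such promoters, with 9.43% of regions lost and 4.08% gained. Lost regions of this list were nearest to Gata6 (2), Foxa2, Sox1 and Neurog2, gained ones to Sox1 and Pax6.

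Among chromatin remodelers and H3K4 methyltransferase subunits 23 of 24 promoters had a peak in all 4 lists, and 6.85% of regions were lost and 6.58% gained. A region 534 bp from the start site of Ep400, the ATPase of the TIP60 complex, was lost (2.81 and 3.40), 716 bp from CTCF. Chd4 had a lost region on CTCF 11117 bp from its start site (3.09 and 2.36) and a gained one 9111 bp from it, off CTCF by 1335 bp (4.32 and 3.22). Chd2, Ino80 and Chd4 each had a lost region on a CTCF peak.

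Autism risk genes had 3.45% of regions lost and 4.41% gained. Ank2, which encodes an ankyrin of neurons and heart and has several promoters, had one lost, at chr3:126998169-126998715 (5.12 and 3.25 at 0 h), and another gained, at chr3:127498810-127499310 (3.78 and 4.09 at 12 h), both covering an annotated start site. Neither was on CTCF. Imprinted genes had 7.89% lost and 8.82% gained. The start site of Airn, the noncoding RNA that silences the paternal copy of Igf2r, had a gained region at chr17:12741133-12741685 with 5.64 and 4.49 at 12 h, and a region 2774 bp from Cdkn1c was lost on CTCF (3.96 and 4.63 at 0 h).

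**Figure D4:**
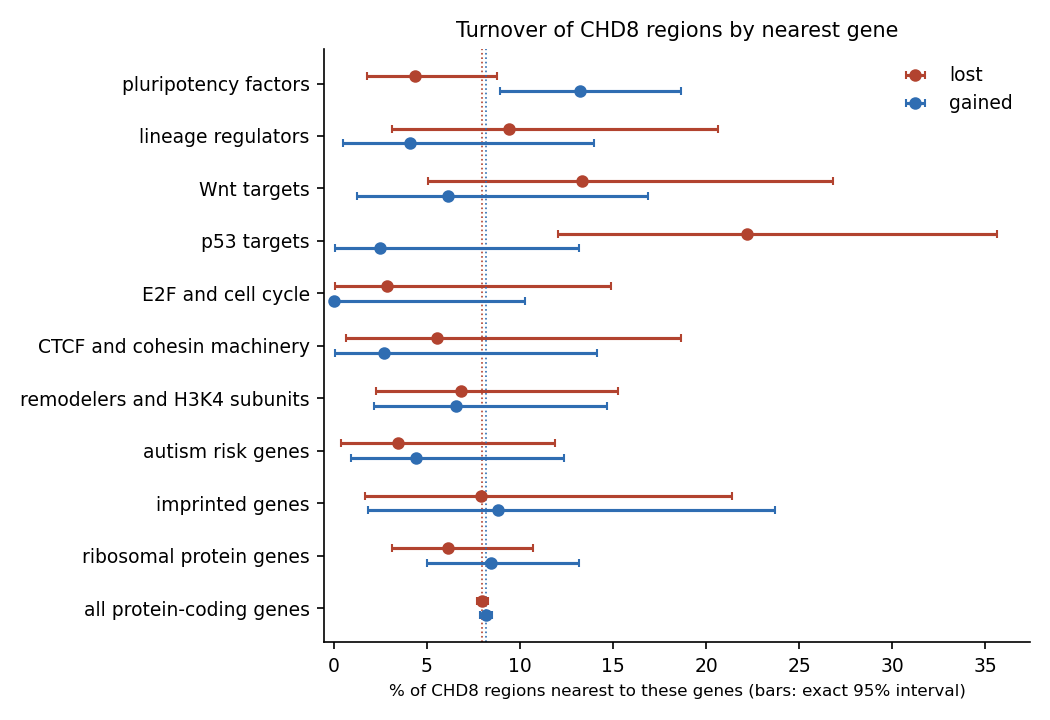
Percent of the CHD8 regions nearest to the genes of each list that were lost (red) or gained (blue), with exact 95% intervals; dotted lines mark all protein-coding genes. Only the lost share of p53 targets, 22.2%, and the gained share of pluripotency factors, 13.2%, have intervals that lie wholly above the line of their colour. The intervals are not adjusted for the number of lists. Outside promoters and CTCF peaks the gained share of pluripotency factors was 15.4%, against 14.1% of all such regions.

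Genes with the most changed regions were looked up after the values were seen. The most gained regions lay nearest to 1810013L24Rik (7), then Tbx3, Tfap2a, Tfap2c and Tns1 (6 each). Tfap2a and Tfap2c encode AP-2 factors of trophoblast, skin and germ cells. The most lost regions lay nearest to Fam92b (6), Agps and Ccdc167 (5 each). By chromosome, the share lost ran from 4.39% on chromosome X to 9.21% on chromosome 8 and the share gained from 5.69% on chromosome X to 10.5% on chromosome 1, so X was lowest for both.

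Other remodelers were read at the lost regions, a readout that the choice of regions did not use. CHD4, the ATPase of the NuRD complex, had a peak at 70.6% and 67.4% of the 2578 lost regions at 0 h and at 56.3% and 38.7% at 12 h. The 0 h and 12 h libraries did not overlap, with a mean difference of -21.5 percentage points (exact permutation p = 0.333, adjusted 0.667). SMARCA4, the ATPase of the BAF complex, gave 65.1% and 40.5%, then 50.4% and 63.5% (exact permutation p = 1, adjusted 1), and SMARCA5, the ATPase of ISWI complexes, 24.0% and 36.0%, then 24.6% and 20.6% (exact permutation p = 0.667, adjusted 0.762), both with overlapping libraries.

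The difference for CHD4 lay with the CTCF sites. At the 1080 lost regions on CTCF the CHD4 shares were 81.1% and 78.1% at 0 h and 45.3% and 28.1% at 12 h, and those of SMARCA5 were 33.6% and 49.6%, then 20.5% and 15.2%; neither pair of times overlapped. SMARCA4 overlapped there, with 66.0% and 40.3%, then 38.6% and 54.5%. At the 1498 lost regions away from CTCF all 3 remodelers overlapped between the times, CHD4 with 63.0% and 59.7%, then 64.3% and 46.3%. At kept regions on CTCF, which were stronger, CHD4 had a peak in 98.2% and 98.0%, then 97.3% and 92.0%.

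At gained regions away from CTCF SMARCA4 was present in 77.6% and 66.4% at 0 h and in 79.3% and 83.8% at 12 h, all 12 h values above all 0 h values. CHD4 (73.1% and 65.3%, then 78.5% and 59.5%) and SMARCA5 (36.0% and 45.1%, then 51.7% and 41.1%) overlapped. At 0 h, CHD4 and SMARCA4 thus had a peak at 69.2% and 72.0% of gained regions in the mean of 2 libraries, against 92.6% and 87.7% of kept regions off CTCF, which were stronger. The mean SMARCA4 share was also higher at 12 h at lost regions off CTCF, with 52.5% at 0 h and 64.4% at 12 h. At kept regions off CTCF it was 87.7% and 92.1%, and in both sets the libraries overlapped. List length moved with some of these values: the SMARCA4 0 h replicate 2 list had 70428 peaks against 92456 to 102636 in the other 3, and the CHD4 replicate 2 lists had narrow peaks, with medians of 119 and 94 bp against 433 and 475 bp. Their part in the differences was not tested.

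**Figure D5:**
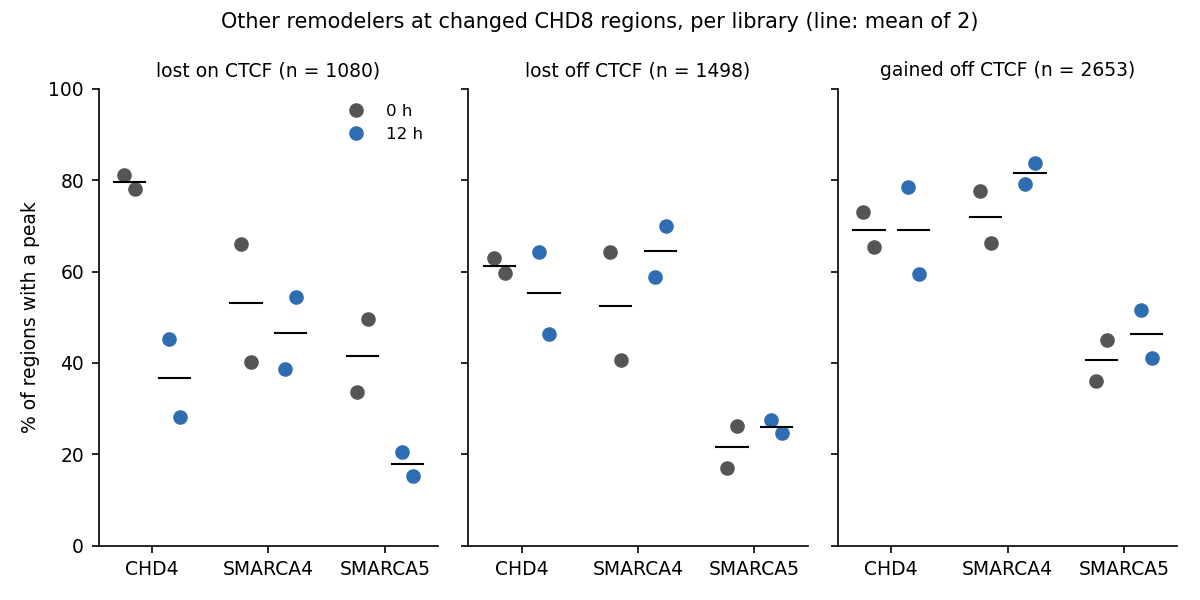
Percent of CHD8 regions with a peak of CHD4, SMARCA4 or SMARCA5 in each library at 0 h (grey) and 12 h (blue), with the mean of 2 as a line, at lost regions on CTCF, lost regions off CTCF and gained regions off CTCF. CHD4 and SMARCA5 separate the times at lost regions on CTCF, and SMARCA4 does so at gained regions. The mean of SMARCA4 is also higher at 12 h at lost regions off CTCF, where its libraries overlap.

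The counts of lost and gained regions depend on asking for both libraries of a time. Without CHD8 0 h replicate 1 or replicate 2 there were 6159 or 11798 lost regions, and without 12 h replicate 1 or replicate 2 there were 5722 or 3213. Gained regions numbered 6304 or 3645 without 0 h replicate 1 or 2, and 6925 or 11999 without 12 h replicate 1 or 2. The share of lost regions on CTCF was then 22.9 to 37.6% and that of gained regions 1.79 to 3.22%. The rates outside promoters moved as well. Without 0 h replicate 1, 0 h replicate 2, 12 h replicate 1 and 12 h replicate 2, loss was 43.4%, 49.6%, 44.4% and 34.6% on CTCF and 19.4%, 28.1%, 21.7% and 11.6% off it, in place of 30.9% and 8.68%. Gain in the same order was 10%, 4.34%, 5.84% and 7.67% on CTCF and 30.7%, 18.8%, 27.0% and 33.8% off it, in place of 3.00% and 14.1%. Loss was higher on CTCF and gain higher off it in all 4 cases, with a smaller ratio between the sites than in the main comparison for both.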

How the data were processed

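CHD8, CTCF, SMC1A and other remodelers were mapped by ChIP-seq, and the deposited peak lists were used as given: the fold enrichment of each peak is the authors' linear ratio over background, and its significance is deposited as −log10 p and −log10 q. Per the submitters' processing notes Trim Galore, Bowtie2, MACS2 and deepTools were used, with builds mm10 and hg38; their settings and the control used for calling are not given in the sources used here. No peak of the 20 lists lay past the end of a GRCm38 chromosome. The lists give no read depth, so depth is unknown.

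From the lists, CHD8 peaks of chromosomes 1 to 19 and X were merged (overlap of at least 1 bp) and classed by list. Start sites, exons and introns came from the GENCODE basic annotation M21, and promoters were within 1 kb of a start site. The 2 libraries of each time were compared by exact permutation tests, with Benjamini-Hochberg adjustment over 8 tests. Shares have exact Clopper-Pearson 95% intervals, for counting error only. The CTCF model of 16 columns was learnt from 5450 CTCF sites and matched 87.1% of 13576 others and 5.00% of shifted windows. Calls and distances were tested on simulated data. Python 3.11.15, numpy 2.4.6, pandas 2.3.3 and scipy 1.17.1 were used.

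Named regions are the 10 with the highest mean percentile among lost regions on CTCF, lost regions over 10 kb from CTCF and gained regions, and the changed regions at genes of the lists. The members and lists were chosen with earlier results of these data known. Alternatives were a −log10 q of at least 5, 40000 peaks per list, summits with 100 bp to either side, other CTCF and promoter cutoffs, a replicate block and each library left out.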

Additional observations from a re-analysis of the deposited data

How the results depend on the processing

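All alternatives kept the direction of the differences in the share of peaks on CTCF, in the share away from both, in the rank of CTCF regions, in CHD4 and in SMARCA5. With each library left out in turn these ran from -6.07 to -5.35, 2.67 to 7.54, -5.67 to -3.93, -30.3 to -11.1 and -13.4 to -0.788 percentage points. With CHD8 peaks at a −log10 q of at least 5 the share away from both differed by 5.16 percentage points. The libraries of the 2 times then overlapped in that share (exact permutation p = 0.667). The promoter measures and SMARCA4 changed sign. The share of peaks at promoters was 1.57 higher at 12 h without CHD8 0 h replicate 2 and 0.968 higher without 12 h replicate 1 (range -3.88 to 1.57), and promoter occupancy was 0.439 higher without 0 h replicate 1 and 0.699 higher without 12 h replicate 2 (range -3.02 to 0.699). SMARCA4 at lost regions differed by -8.11 without SMARCA4 0 h replicate 2 and by -2.37 without 12 h replicate 2 (range -8.11 to 16.5); the cause was not tested.

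With one library left out, lost regions numbered 3213 to 11798 and gained regions 3645 to 11999, with 22.9 to 37.6% and 1.79 to 3.22% on CTCF. With a −log10 q of at least 5 there were 1414 lost and 1553 gained regions, with 44.1% and 3.54% on CTCF. With summits and 100 bp to either side the shares on CTCF were 37.2% and 3.49%. The replicate block, which exchanges times within a replicate number, left the difference in the share on CTCF at -5.71 with an exact permutation p of 0.5, the lowest it can give. Both promoter measures were lower at 12 h within each replicate number, also at a block p of 0.5. The labels do not say that a number pairs libraries, and it was not taken to: replicate differences at 0 h and 12 h correlated at 0.0337 over 70322 regions, which are not independent. That value does not see the greater length of both replicate 1 lists. With 2 libraries a time no call could be lost or won, and depth is unknown.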
